A study of Homo sapiens with 9 samples.

Results

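10 genes of the beta-catenin destruction complex and of the Dishevelled family were followed through 9 RNA-seq libraries of HKC-8, an established human line of kidney proximal tubular epithelial cells. They were picked by symbol from the 20323 genes of the deposited table: CTNNB1, APC, AXIN1, GSK3A, GSK3B, CSNK1A1 and BTRC on the side of beta-catenin and its destruction, and DVL1, DVL2 and DVL3 as the Dishevelled genes. Where a symbol stood on several rows, the row with the largest summed count was used. All 10 passed the filter on low counts, with 13153 genes tested in all. The 3 groups of 3 libraries were cells with the empty vector pcDNA3 (control), cells with a plasmid for overexpression of the ligand Wnt1 (Wnt1), and cells with the Wnt1 plasmid that also received KP6, a peptide derived from the kidney protein Klotho (Wnt1_KP6). The genotype label of both plasmid groups is Wnt1 overexpression, the sources used here do not give doses or times, and the labels do not say whether the replicates of a group were separate cultures, so a p-value here speaks for the scatter among these libraries, part or all of which may be technical.

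In cells without a Wnt signal, a complex built on the scaffolds Axin and APC holds beta-catenin while casein kinase 1 alpha and GSK3 phosphorylate it, and the F-box protein beta-TrCP then brings it to a ubiquitin ligase for destruction. When a Wnt ligand binds Frizzled and LRP5 or LRP6, Dishevelled is recruited to the membrane and draws Axin there, so that beta-catenin escapes and acts with TCF/LEF factors in the nucleus. Most of this control acts on protein, by phosphorylation, ubiquitination and binding, none of which RNA levels record. In the kidney tubule, Wnt/beta-catenin signalling is known for its return after injury.

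The libraries held 21199078 to 27507623 expected counts, and 14915 to 15225 genes had a count. Replicate 1 of every group stood apart from replicates 2 and 3: a principal component analysis gave 38.1% of the variance to the first component, which placed the 3 replicate 1 libraries between -38.82 and -37.36 and the other 6 between 9.21 and 25.07. Mitochondrial genes took 5.18 to 5.72% of the counts in the replicate 1 libraries and 7.01 to 7.97% in the others. All libraries carry the same batch label. WNT1, the gene of the plasmid, had 0 counts in every control and every Wnt1 library and 1, 2 and 0 counts in the Wnt1_KP6 libraries, so its count did not check the plasmid label. Of 12 proximal tubule markers, 3 had a mean FPKM of at least 1, GGT1 and PAX8 among them, and the transporter gene SLC22A6 was listed at 0 in all libraries. Of 6 epithelial markers 5 reached that level, all but CDH1, while 1 of 10 fibroblast and endothelial markers (COL1A1) and 1 of 7 immune markers (CD68) did, with KDR, EMCN, PTPRC and CD3E at 0. In bulk RNA, fewer cells expressing a gene and less RNA per cell cannot be told apart.

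None of the 10 genes passed an adjusted p of 0.05 in any comparison of the 9 libraries by the quasi-likelihood test of edgeR, adjusted after Benjamini-Hochberg over all genes tested, the source of every adjusted p here unless another tool is named. The test called 0.122% of all genes in Wnt1 against control, 0 of 13153 in Wnt1_KP6 against Wnt1 and 0.228% in Wnt1_KP6 against control, so a count of 0 among 10 lies near the background. At an unadjusted p under 0.05 the members counted 1, 0 and 1, DVL2 both times, where 11.2%, 2.76% and 15.8% of all genes passed. DESeq2 also gave 1, 0 and 1 at an adjusted p under 0.05, again DVL2, and called 2.13%, 0.107% and 5.18% of the genes it tested. The members' median log2 fold change was 0.02 in Wnt1 against control, 0.04 in Wnt1_KP6 against Wnt1 and 0.05 in Wnt1_KP6 against control, and the median of all genes lay within 0.01 of 0 each time.

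In replicates 2 and 3 alone, 4 members passed the test in Wnt1 against control (AXIN1, GSK3B and DVL2 higher, DVL1 lower), none in Wnt1_KP6 against Wnt1, and 3 in Wnt1_KP6 against control (GSK3B and DVL2 higher, DVL1 lower). That test called 31.6%, 8.62% and 40.6% of all 13041 genes it could test, so these shares of 10 lie near the background too. The comparisons with control share the control libraries and are not independent of each other. The TMM-scaled levels of 3 members in the 3 Wnt1 libraries lay entirely above those in the control libraries (AXIN1, DVL2 and DVL3). Of these, AXIN1 overlapped without TMM scaling. Among all genes, 16.5% did not overlap. The corresponding counts were 1 of 10 (DVL2, higher, and overlapping without TMM scaling) in Wnt1_KP6 against Wnt1, against 5.81% of all genes, and 1 of 10 (DVL2, higher) in Wnt1_KP6 against control, against 16.5%.

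In all, 3 members passed the test in replicates 2 and 3 in both comparisons with control, DVL1, DVL2 and GSK3B, and their promoters are shown for that reason. The sequences are from RefSeq on GRCh38.p14, 5′ to 3′ on the gene's strand, and end at or just before the RefSeq transcription start. They are DVL1 at chr1:1349419-1349668, DVL2 at chr17:7234546-7234767 and GSK3B at chr3:120094448-120094697, all on the minus strand. Of the DVL2 window, the 28 bases nearest the start lie inside the GENCODE gene span and are left out. Capitals mark matches on either strand of GGGCGG (the GC box of SP1 and KLF factors), CCAAT (the CCAAT box), CACGTG (an E box) and TGACGTCA (the cyclic AMP response element).
DVL1: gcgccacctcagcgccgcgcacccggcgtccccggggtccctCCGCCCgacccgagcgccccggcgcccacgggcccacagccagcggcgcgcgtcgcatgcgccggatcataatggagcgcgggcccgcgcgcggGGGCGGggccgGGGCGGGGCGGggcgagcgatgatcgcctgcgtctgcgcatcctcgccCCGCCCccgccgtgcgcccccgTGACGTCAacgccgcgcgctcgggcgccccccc
DVL2: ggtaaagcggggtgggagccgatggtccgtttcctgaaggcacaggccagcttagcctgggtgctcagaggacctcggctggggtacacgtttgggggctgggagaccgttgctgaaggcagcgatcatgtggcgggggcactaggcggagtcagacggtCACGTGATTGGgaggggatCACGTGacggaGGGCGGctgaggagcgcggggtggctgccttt
GSK3B: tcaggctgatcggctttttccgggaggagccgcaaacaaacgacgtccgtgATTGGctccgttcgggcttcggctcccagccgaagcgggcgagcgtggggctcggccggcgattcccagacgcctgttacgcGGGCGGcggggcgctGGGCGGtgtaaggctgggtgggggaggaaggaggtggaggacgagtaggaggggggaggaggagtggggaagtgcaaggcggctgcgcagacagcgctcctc

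The DVL1 promoter was 83.2% G and C over 250 bases, DVL2 64.4% and GSK3B 68.8%, with a median of 58.0% over 35116 promoters of the same length. DVL1 held 5 copies of GGGCGG, a pair of which share a base, and 1 TGACGTCA. DVL2 held 3 copies of CACGTG in its 250 bases, 2 of them in the stretch shown, beside 1 GGGCGG and 1 CCAAT that adjoins an E box. GSK3B held 2 copies of GGGCGG and 1 CCAAT. Promoters of 9 members matched the table, and 8 of those 9, all but APC, held GGGCGG, which 42.6% of all promoters hold. CCAAT stood in 2 of 9 (32.0% of all promoters), CACGTG in 1 (6.35%) and TGACGTCA in 1 (1.65%). CTTTGAT, the core bound by TCF/LEF factors, TGACTCA of AP-1 and TATAAA were in none of the 9, against 2.26%, 4.20% and 10.7% of all promoters. A match is a description of the letters and not a site, and no match says only that the letters are absent from this window.

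**Figure D1:**
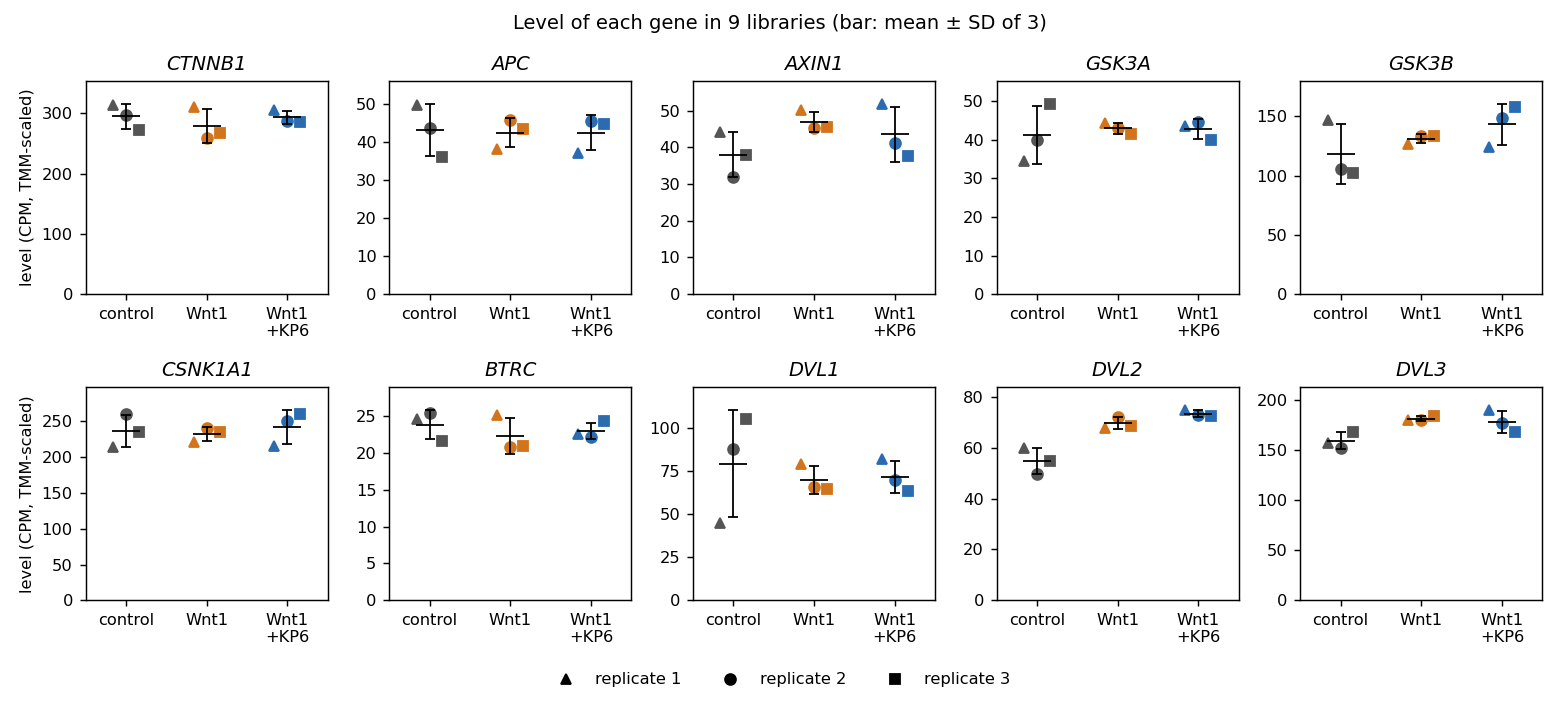
Level of each gene as CPM (counts scaled to library size, by TMM; vertical axis from 0) in the 9 libraries, by group on the horizontal axis; the marker shape gives the replicate and the bars the mean ± SD of 3. DVL2 lies between 49.8 and 60.0 in the control libraries and between 67.9 and 74.9 in the other 6, while DVL1 spans 44.5 to 105 in control alone.

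DVL2, which relays the signal from Frizzled to Axin, was the member with the smallest p in both comparisons with control. Its gene lies at chr17:7225341-7234545 on the minus strand (GRCh38, as all gene positions here). DVL2 stood at 60.0, 49.8 and 55.0 CPM in control replicates 1, 2 and 3, at 67.9, 72.3 and 68.7 CPM with Wnt1, and at 74.9, 73.0 and 72.4 CPM with Wnt1 and KP6. All 3 control libraries lay below the other 6. The Wnt1 and Wnt1_KP6 libraries were parted only by the step from 72.3 to 72.4, and without TMM scaling they overlapped, at 68.7 to 71.8 and 68.4 to 76.5 CPM, as they did in FPKM, at 28.04 to 29.4 and 27.6 to 32.9. The log2 fold change was 0.34 ± 0.09 (SE) in Wnt1 against control (adjusted p = 0.205) and 0.42 ± 0.09 in Wnt1_KP6 against control (adjusted p = 0.0796). With DESeq2 the same differences passed, at adjusted p = 0.0422 and 0.0027. Between Wnt1_KP6 and Wnt1 the difference was 0.08 ± 0.09 (adjusted p = 1). DVL2 was higher than control in each numbered pair of libraries, by 0.18 in replicate 1 and 0.43 ± 0.08 in replicates 2 and 3 for Wnt1 (adjusted p = 0.00101), and by 0.32 and 0.47 ± 0.08 for Wnt1_KP6 (adjusted p = 0.000326). Without control replicate 1 the 9-library differences became 0.41 (adjusted p = 0.0209) and 0.49 (adjusted p = 0.0101), where 6.62% and 9.03% of all genes passed. Without control replicate 2 they became 0.28 (adjusted p = 0.8) and 0.35 (adjusted p = 0.356), and leaving out any of the other 8 libraries singly gave no call of DVL2. The summed FPKM of the 12 proximal tubule markers moved with DVL2, at 325 to 395 in control, 411 to 463 with Wnt1 and 408 to 428 with Wnt1 and KP6, most of it PAX8, and its part in the DVL2 result was not tested.

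DVL1, another Dishevelled paralog of the same pathway step, varied most of the 10. It lies at chr1:1335276-1349350 on the minus strand. DVL1 stood at 44.5, 87.8 and 105 CPM in control replicates 1, 2 and 3, at 78.9, 65.4 and 64.3 CPM with Wnt1, and at 81.5, 69.6 and 63.2 CPM with Wnt1 and KP6. Control replicate 1 was the lowest of the 9 libraries and control replicates 2 and 3 the highest, so the control group enclosed both others. The difference from control was 0.82 in replicate 1 and -0.57 ± 0.09 in replicates 2 and 3 for Wnt1 (adjusted p = 0.000335), and 0.87 and -0.54 ± 0.09 for Wnt1_KP6 (adjusted p = 0.000355). Over 9 libraries these gave -0.18 ± 0.27 (adjusted p = 0.87) and -0.15 ± 0.27 (adjusted p = 0.86). Without control replicate 1 they became -0.47 and -0.43, and without control replicate 3 they turned to 0.07 and 0.11. Opposite signs in replicate 1 and in replicates 2 and 3 were found for 51.8% of all genes in Wnt1 against control and 53.6% in Wnt1_KP6 against control. The log2 level of DVL1 ranged over 1.23 across the 9 libraries, more than 81.1% of the genes tested, where the median range was 0.65.

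DVL3, the third Dishevelled gene (chr3:184155311-184173614, plus strand), stood at 157, 152 and 169 CPM in control, 181, 180.1 and 184 CPM with Wnt1, and 190.2, 177 and 168 CPM with Wnt1 and KP6. The Wnt1 libraries lay above all control libraries, while Wnt1_KP6 overlapped both groups. The difference was 0.19 ± 0.09 in Wnt1 against control (adjusted p = 0.451), -0.02 ± 0.09 in Wnt1_KP6 against Wnt1 (adjusted p = 1) and 0.16 ± 0.09 in Wnt1_KP6 against control (adjusted p = 0.394). The range of its log2 level, 0.32, was among the narrow ones (percentile 10.6).

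**Figure D2:**
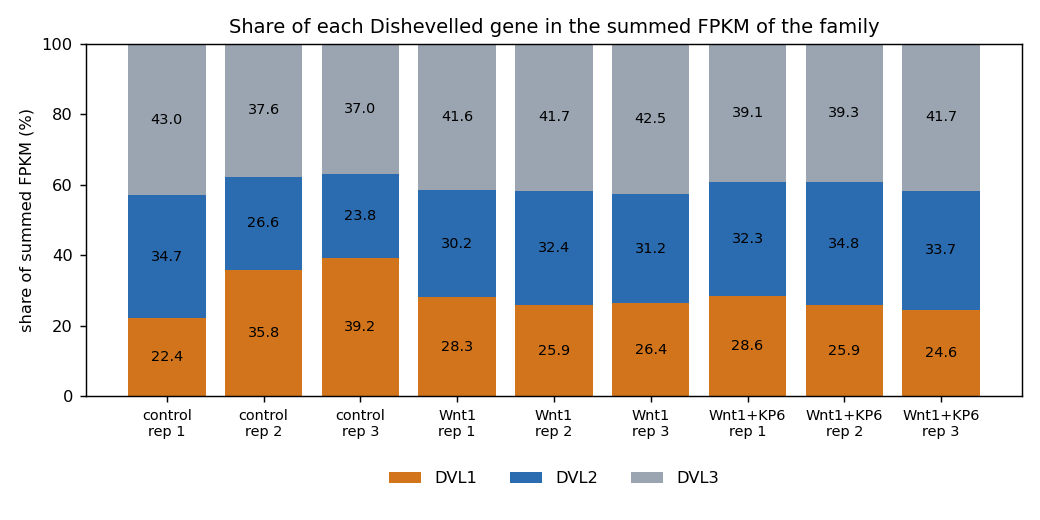
Share of DVL1, DVL2 and DVL3 (stacked bars, percent of their summed FPKM) in each of the 9 libraries. DVL1 took 22.4% in control replicate 1, 35.8 and 39.2% in control replicates 2 and 3, and 24.6 to 28.6% in the other 6 libraries.

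Per length, the Dishevelled genes stood close together. FPKM, which divides by transcript length, averaged 36.0 ± 2.89 (SD over 9 libraries) for DVL3, 27.7 ± 3.46 for DVL2 and 25.6 ± 5.84 for DVL1. Of the summed FPKM of the family, DVL3 took the largest share in 8 of 9 libraries, 37.6 to 43.0%, and in control replicate 3 DVL1 exceeded it, with 39.2% against 37.0%. The DVL2 share was 34.7, 26.6 and 23.8% in control, 30.2, 32.4 and 31.2% with Wnt1 and 32.3, 34.8 and 33.7% with Wnt1 and KP6. In the plot of shares, control replicates 2 and 3 have the highest DVL1 and the lowest DVL2 shares. Control replicate 1 has the lowest DVL1 and the highest DVL3 share of the 9 libraries. No 50-base stretch of transcript was shared between members, so the 3 genes can be told apart by sequence. Of 18 exact permutation tests (two-sided) of the shares of DVL1, DVL2, DVL3, GSK3A, BTRC and JUP in their families, 3 libraries against 3 cannot go below p = 0.1, and only the BTRC share in Wnt1 against control reached that.

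Beta-catenin itself, the transcription coactivator and junction protein encoded by CTNNB1 (chr3:41194741-41260096, plus strand), was the member with the narrowest range of TMM-scaled log2 level. CTNNB1 stood at 314, 298 and 273 CPM in control, 311, 259 and 268 CPM with Wnt1, and 305, 288 and 286 CPM with Wnt1 and KP6. Replicate 1 was the highest library in each group, and the groups overlapped. The difference was -0.08 ± 0.10 in Wnt1 against control (adjusted p = 0.847), 0.07 ± 0.10 in Wnt1_KP6 against Wnt1 (adjusted p = 1) and -0.01 ± 0.10 in Wnt1_KP6 against control (adjusted p = 0.983). Its log2 level ranged over 0.28 (percentile 6.34 of all genes). Of 10604 genes compared, those with the profile most like that of CTNNB1 over the 9 libraries, by root mean square difference of centred log2 CPM, were PEX2 (0.017), VAPA (0.038), PPT1 (0.040), PPP6C (0.040) and JKAMP (0.041). The nearest member was BTRC, at rank 54 (0.061). JUP, the gene of plakoglobin, the close relative of beta-catenin at junctions, took 36.6 to 43.1% of the summed FPKM of the pair.

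**Figure D3:**
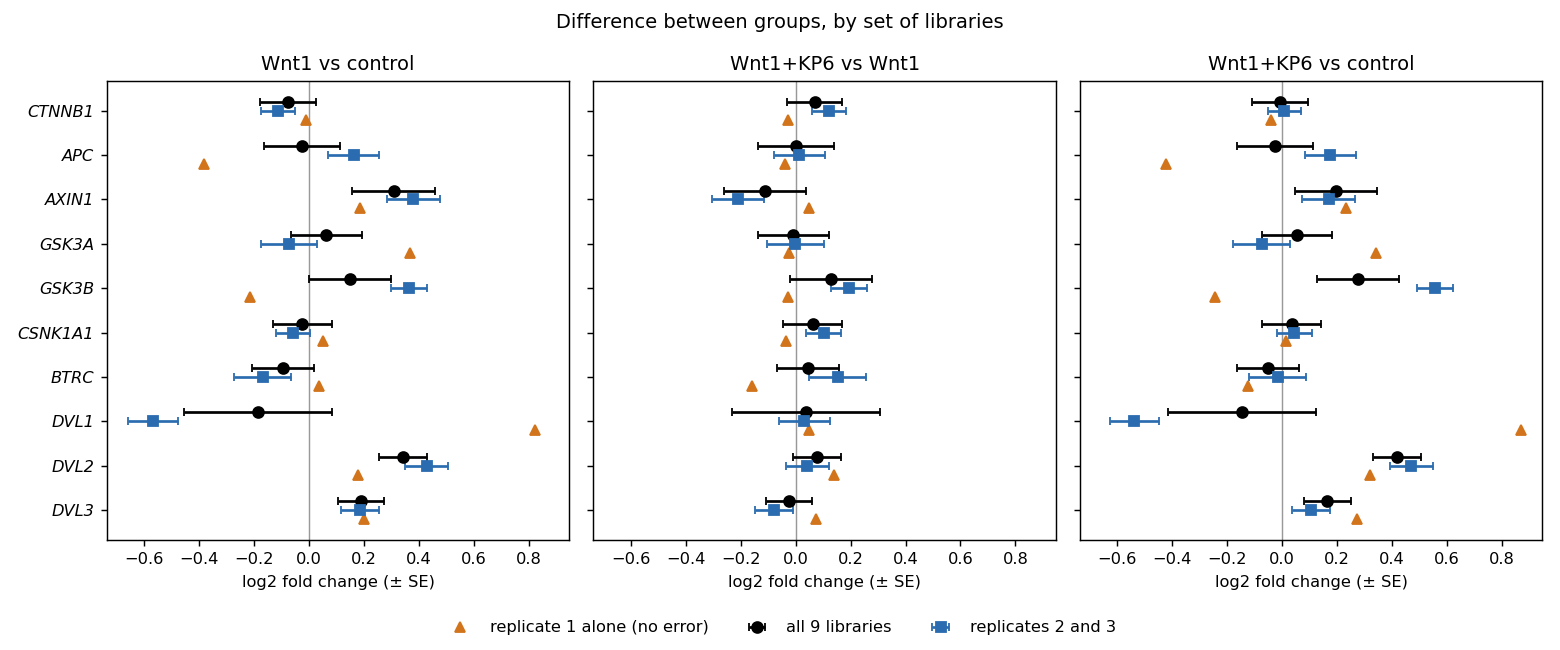
Log2 fold change of each gene (horizontal axis) in the 3 comparisons, from all 9 libraries (black circles, ± SE), from replicates 2 and 3 (blue squares, ± SE) and from replicate 1 alone (orange triangles, no error). DVL1, GSK3B, APC and GSK3A have replicate 1 and replicates 2 and 3 on opposite sides of 0 in both comparisons with control. DVL2 has all 3 symbols above 0.

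Among the kinases, GSK3B differed most between the sets of libraries. GSK3B and GSK3A encode the kinases that phosphorylate beta-catenin after casein kinase 1 alpha has primed it. GSK3B (chr3:119821323-120094417, minus strand) stood at 147, 106 and 102 CPM in control, 127, 133 and 134 CPM with Wnt1, and 124, 148 and 157 CPM with Wnt1 and KP6. On this scale control replicate 1 lay above the 3 Wnt1 libraries, and control replicates 2 and 3 were the lowest of all 9. Neither held in FPKM. There control replicate 1 (39.6) lay below Wnt1 replicates 2 and 3 (40.8 and 39.7), and Wnt1 replicate 1 (34.2) below control replicate 3 (35.1). The difference from control was -0.22 in replicate 1 and 0.36 ± 0.07 in replicates 2 and 3 for Wnt1 (adjusted p = 0.00093), and -0.24 and 0.56 ± 0.07 for Wnt1_KP6 (adjusted p = 1.6e-05). Over 9 libraries it was 0.15 ± 0.15 (adjusted p = 0.783) and 0.28 ± 0.15 (adjusted p = 0.418). Without control replicate 1, GSK3B passed in Wnt1_KP6 against control at 0.46 ± 0.11 (adjusted p = 0.0358) and stood at 0.34 in Wnt1 against control (adjusted p = 0.107). Without control replicate 3 the same differences were 0.18 (adjusted p = 0.643) and 0.05 (adjusted p = 0.93). Between Wnt1_KP6 and Wnt1 the difference was 0.13 ± 0.15 (adjusted p = 1).

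GSK3A (chr19:42230186-42242625, minus strand) stood at 34.5, 39.9 and 49.3 CPM in control and between 40.0 and 44.8 CPM in the other 6 libraries. The control group enclosed both others, and the differences were 0.06 ± 0.13 in Wnt1 against control (adjusted p = 0.913) and 0.05 ± 0.13 in Wnt1_KP6 against control (adjusted p = 0.89). In both comparisons GSK3A was above control in replicate 1 and below it in the fit of replicates 2 and 3. GSK3A took 29.3 to 43.1% of the summed FPKM of the 2 GSK3 genes, with the highest share in control replicate 3 and the lowest in Wnt1_KP6 replicate 3. Of its exon bases, 11.6% overlap another gene model on the same strand, AC006486.1, and 2 other rows of the table with its symbol, which were not used, held 0.111% and 0 of the counts of that symbol.

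CSNK1A1, which encodes the priming kinase casein kinase 1 alpha (chr5:149492197-149551552, minus strand), stood between 214 and 261 CPM in the 9 libraries. Replicate 1 was the lowest library of every group, at 214, 221 and 216 CPM in control, Wnt1 and Wnt1_KP6. The differences were -0.03 ± 0.11 (adjusted p = 0.964), 0.06 ± 0.11 (adjusted p = 1) and 0.04 ± 0.11 (adjusted p = 0.918) in Wnt1 against control, Wnt1_KP6 against Wnt1 and Wnt1_KP6 against control. Of its exon bases 37.4% overlap AC021078.1 on the same strand, and how the authors' counting shared those reads is not given in the sources used here.

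Of the scaffolds, AXIN1 was higher in the 3 Wnt1 libraries than in all 3 controls after TMM scaling. Without that scaling the groups overlapped, at 45.0 to 51.4 CPM with Wnt1 and 32.6 to 46.2 CPM in control. They overlapped in FPKM as well, at 13.0 to 14.9 and 9.48 to 13.6. AXIN1 encodes the scaffold that holds the kinases and beta-catenin together. It lies at chr16:287440-352673 on the minus strand. AXIN1 stood at 44.1, 32.0 and 38.0 CPM in control, 50.2, 45.4 and 45.6 CPM with Wnt1, and 51.9, 41.2 and 37.6 CPM with Wnt1 and KP6. The Wnt1_KP6 libraries overlapped both other groups, and replicate 1 was the highest library in each. The difference was 0.31 ± 0.15 in Wnt1 against control (adjusted p = 0.483), -0.11 ± 0.15 in Wnt1_KP6 against Wnt1 (adjusted p = 1) and 0.20 ± 0.15 in Wnt1_KP6 against control (adjusted p = 0.592). In replicates 2 and 3 the first of these was 0.38 ± 0.10 (adjusted p = 0.00826), with 0.19 in replicate 1. Leaving out 1 library moved the difference in Wnt1 against control to between 0.20 (without control replicate 2) and 0.43 (without control replicate 1). Without Wnt1_KP6 replicate 1, the difference from control fell to 0.05 and that from Wnt1 was -0.26, and without Wnt1_KP6 replicate 3 the latter was -0.02.

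APC, the tumour suppressor scaffold (chr5:112707498-112846239, plus strand), stood at 49.9, 43.6 and 36.2 CPM in control, 38.2, 45.8 and 43.4 CPM with Wnt1, and 37.2, 45.5 and 44.7 CPM with Wnt1 and KP6. Control replicate 1 was the highest of the 9 libraries and control replicate 3 the lowest, so the groups overlapped. The difference from control was -0.03 ± 0.14 for both Wnt1 (adjusted p = 0.977) and Wnt1_KP6 (adjusted p = 0.959). It was -0.38 in replicate 1 and 0.16 ± 0.09 in replicates 2 and 3 in Wnt1 against control. Another row of the table with the symbol APC held 4.61% of the counts of that symbol and was not used.

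BTRC, which encodes the F-box protein beta-TrCP (chr10:101354033-101557321, plus strand), stood between 20.8 and 25.3 CPM in all 9 libraries, and the groups overlapped. The differences were -0.10 ± 0.11 (adjusted p = 0.824), 0.04 ± 0.11 (adjusted p = 1) and -0.05 ± 0.11 (adjusted p = 0.882) in Wnt1 against control, Wnt1_KP6 against Wnt1 and Wnt1_KP6 against control. Of the summed FPKM of BTRC and FBXW11, its close paralog, BTRC took 20.7, 22.6 and 20.4% in control, 19.1, 18.5 and 19.6% with Wnt1, and 18.2, 18.3 and 23.9% with Wnt1 and KP6. The share was 19.1 ± 0.572% (SD, n = 3) with Wnt1 and 21.2 ± 1.19% in control, without overlap (exact permutation p = 0.1, the smallest possible; 0.8 after Benjamini-Hochberg adjustment over the 18 tests).

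**Figure D4:**
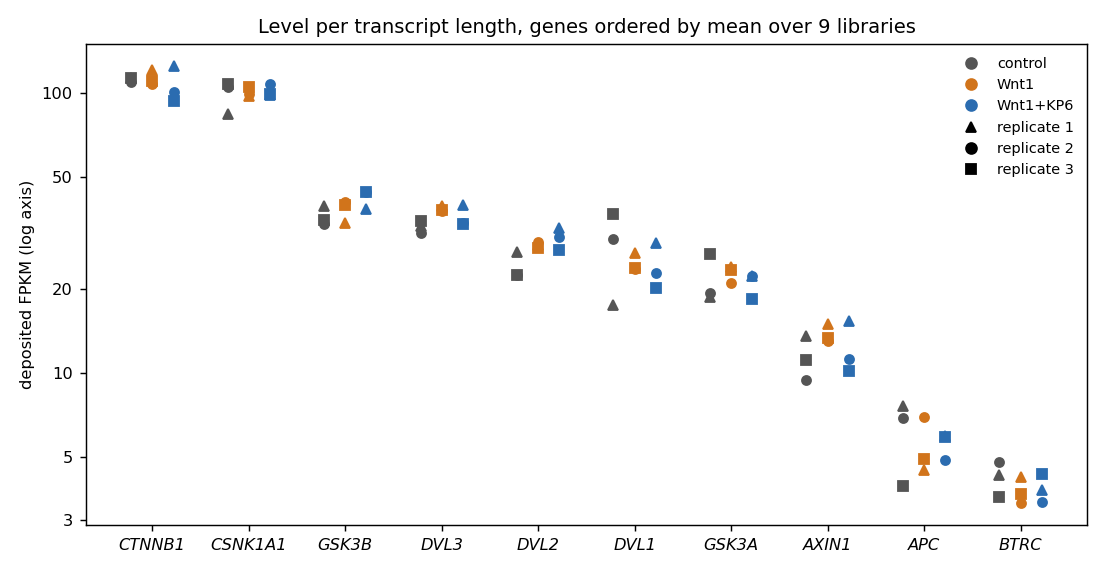
Deposited FPKM of each gene (logarithmic vertical axis) in the 9 libraries, with genes in the order of their mean; color gives the group and shape the replicate. CTNNB1 and CSNK1A1 lie near 100 and BTRC near 4, and the spread between libraries is widest for DVL1 and APC.

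The 10 genes differed far more from each other than between groups. On the FPKM scale CTNNB1 averaged 110 ± 9.40 (SD over 9 libraries, percentile 97.1 of all genes in the table) and CSNK1A1 100.1 ± 7.23. GSK3B followed at 39.0 ± 3.94, then the Dishevelled genes, then GSK3A at 21.7 ± 2.69. At the low end stood AXIN1 at 12.5 ± 2.06, APC at 5.75 ± 1.26 and BTRC at 3.99 ± 0.486 (percentile 53.9). Steps without overlap between libraries separated CSNK1A1 from GSK3B, GSK3A from AXIN1, and AXIN1 from APC. The other neighbours in this order overlapped: CTNNB1 was above CSNK1A1 in 7 of 9 libraries, GSK3B above DVL3 in 7, DVL3 above DVL2 in 9, DVL2 above DVL1 in 7, DVL1 above GSK3A in 8, and APC above BTRC in 9. So the substrate and its priming kinase led, and the scaffolds and the F-box gene had the lowest levels per length.

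**Figure D5:**
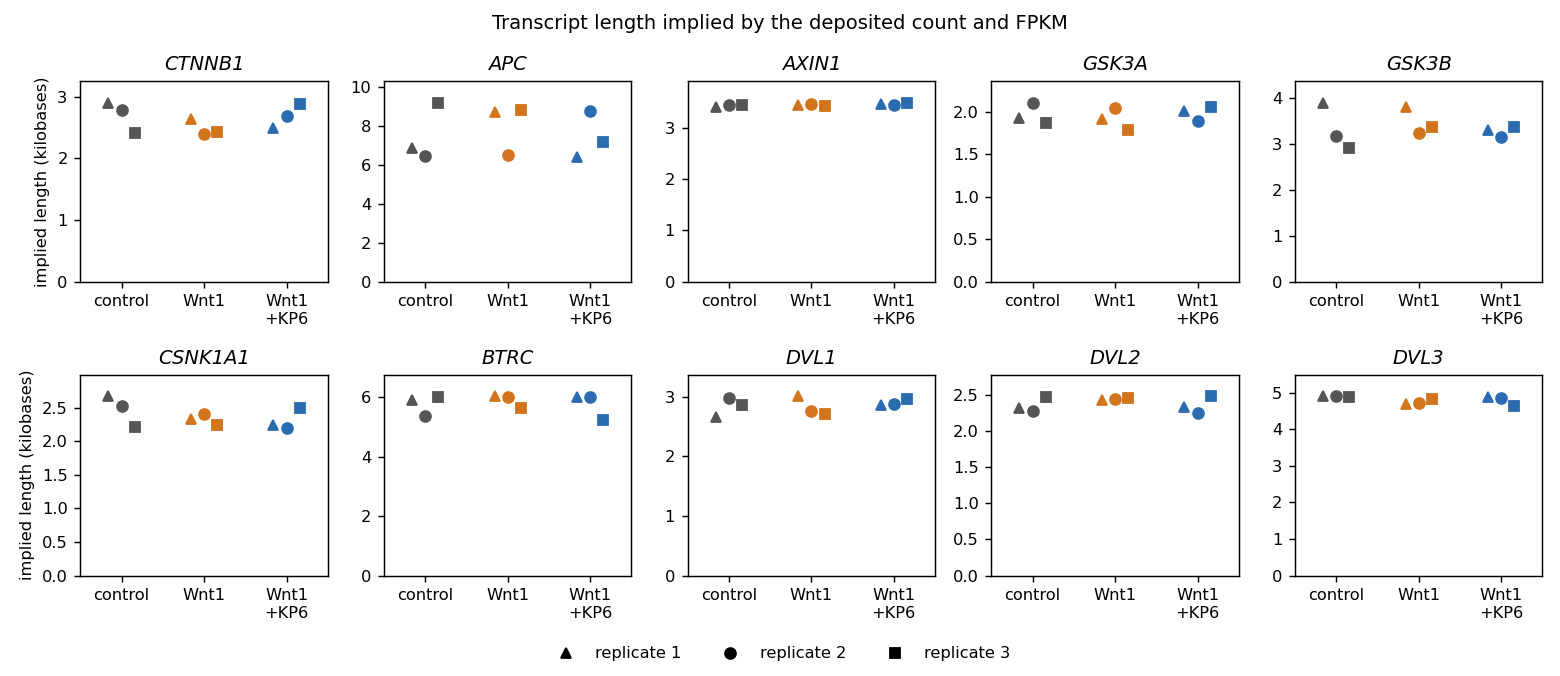
Transcript length in kilobases implied by the deposited count and FPKM (vertical axis from 0) for each gene in the 9 libraries, by group. APC falls into 4 libraries between 8695 and 9180 bases and 5 between 6379 and 7147, while AXIN1 keeps about the same length in all 9.

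Counts and FPKM of a gene did not vary alike in all members. The length by which FPKM divides follows from a gene's count, its FPKM and the library total, and for some members it differed between libraries. For APC it was 6379 to 7147 bases in 5 libraries and 8695 to 9180 bases in the other 4, which were control replicate 3, Wnt1 replicates 1 and 3 and Wnt1_KP6 replicate 2. The ratio of longest to shortest was 1.44, more than in 97.7% of 6727 genes with at least 500 counts in every library, where the median ratio was 1.07. The FPKM of APC spanned 1.93-fold over the 9 libraries and its CPM, before TMM scaling, 1.44-fold. For GSK3B the length was 2914 to 3893 bases (ratio 1.34, percentile 95.4), for CTNNB1 the ratio was 1.22 and for AXIN1 1.02. The long and short values of APC were found in all 3 groups. Shares and orders on the FPKM scale carry this variation. The tests on counts used no length, so they neither divide by it nor correct for a difference in it between libraries. For GSK3B, control replicate 1 had 3893 bases, 154 CPM before TMM scaling and 39.6 FPKM. Control replicate 3 had 2914 bases, 102 CPM and 35.1 FPKM.

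The other genes of the pathway were taken from 7 lists, and none of their tested members was called in any of the 3 comparisons over 9 libraries. The lists held other scaffolds, kinases and phosphatase subunits of the complex (17 tested of 19), partners of the beta-TrCP ligase (10 of 10), regulators of Axin stability (8 of 8), Dishevelled partners (16 of 21), junction partners of beta-catenin (7 of 10), its nuclear partners (15 of 16) and its feedback targets (9 of 15). The median log2 fold changes of these lists ran from -0.09 (Dishevelled partners) to 0.04 in Wnt1 against control, from -0.03 to 0.09 in Wnt1_KP6 against Wnt1 and from -0.17 (Dishevelled partners) to 0.11 in Wnt1_KP6 against control, and those of all genes tested were within 0.01 of 0. Of the 80 different genes tested in these lists, 4, 3 and 9 had an unadjusted p under 0.05 in the 3 comparisons, beside 11.2%, 2.76% and 15.8% of all genes. DESeq2 called 0, 0 and 1 of them (TLE1, in Wnt1_KP6 against control), beside 2.13%, 0.107% and 5.18% of all genes it tested. In replicates 2 and 3 alone, 10 were higher and 14 lower in Wnt1 against control, 9 higher and 4 lower in Wnt1_KP6 against Wnt1, and 23 higher and 20 lower in Wnt1_KP6 against control, beside the 31.6%, 8.62% and 40.6% of all genes given above. With the replicate number as a block, the feedback target TNFRSF19, a receptor of the tumour necrosis factor family, was lower in Wnt1 against control (-1.22 ± 0.71 without the block, adjusted p = 0.574 and, with it, 0.0269). MYC, the growth regulator, and DKK1, a secreted Wnt inhibitor, were higher in Wnt1_KP6 against control with the block (adjusted p = 0.0488 and 0.04), at 1.16 ± 0.44 and 1.09 ± 0.92 without it (adjusted p = 0.245 and 0.632). The block called 0.722% and 1.13% of all genes in these comparisons.

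Around the complex, the lists' smallest p in Wnt1 against control belonged to PPP2R5C, a regulatory subunit of protein phosphatase 2A (-0.27 ± 0.09, adjusted p = 0.301), CUL1, the cullin that carries beta-TrCP (-0.16 ± 0.08, adjusted p = 0.479), and SMURF2, a ubiquitin ligase (-0.22 ± 0.14, adjusted p = 0.614). KLHL12, an adaptor that marks Dishevelled for ubiquitination, gave -0.24 ± 0.10 (adjusted p = 0.405), the junction gene CTNNA1 -0.17 ± 0.10 (adjusted p = 0.57) and the coactivator CREBBP 0.36 ± 0.14 (adjusted p = 0.381). In Wnt1_KP6 against Wnt1 they were AMER1, a partner of APC, at -0.31 ± 0.17, CUL1 at 0.07 ± 0.08, the ligase SIAH2 at 0.35 ± 0.20, FRAT2, which binds GSK3, at -0.30 ± 0.24, vinculin (VCL) at 0.59 ± 0.19, the corepressor TLE3 at 1.26 ± 0.45 and MYC at 0.74 ± 0.43, each with an adjusted p of 1. In replicates 2 and 3, where no member was called between these groups, TLE3 was higher by 1.91 ± 0.12 (adjusted p = 4.7e-08), MYC by 0.91 ± 0.07 (adjusted p = 3.6e-07) and VCL by 0.85 ± 0.06 (adjusted p = 1.4e-07), and in replicate 1 they differed by -0.39, -0.02 and -0.06. In Wnt1_KP6 against control they were CSNK1G2, a casein kinase 1 gene, at 0.39 ± 0.12 (adjusted p = 0.18), RBX1, the ring protein of the ligase, at -0.23 ± 0.12 (adjusted p = 0.397), SMURF2 at -0.27 ± 0.14 (adjusted p = 0.414), KLHL12 at -0.21 ± 0.10 (adjusted p = 0.332), VCL at 0.57 ± 0.19 (adjusted p = 0.191) and the corepressor TLE1 at 0.42 ± 0.10 (adjusted p = 0.106). The last list, feedback targets, was led there by MYC with the values above.

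The paralogs and partners set the members' levels in context on the FPKM scale. AXIN2 and APC2, the second genes of the scaffold pairs, averaged 0.414 and 0.415 FPKM, far below AXIN1 and APC. CSNK1D and CSNK1E, close relatives of CSNK1A1, averaged 77.0 and 64.6, and FBXW11 averaged 15.8, above BTRC. At junctions CTNNA1 averaged 121 and CDH2 36.6, and E-cadherin (CDH1) 0.014. Of the Wnt co-receptors LRP6 averaged 12.2 and LRP5 4.38, and of the nuclear partners TCF7L2 averaged 14.6.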

How the data were processed

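Poly(A) RNA of 9 HKC-8 libraries was sequenced. The submitters' processing notes name RSEM, StringTie 1.3.1, HISAT2, Bowtie2 2.2.8, fastp 0.18.0 and build hg38, with no role for each. For every gene the authors deposited an expected count and an FPKM in each library, per the file headers. An expected count is an estimate that shares reads between genes with common sequence. The counts were rounded and filtered (filterByExpr, minimum count 10, minimum total 15), scaled by TMM and tested with the two-sided quasi-likelihood test of edgeR 4.0.16 in R 4.3.3 over 3 group means. DESeq2 1.42.0, a replicate block, other size factors, no filter, fits of 2 groups and left-out libraries were alternatives. Same-numbered libraries deviated together from their group means (r across genes 0.11 to 0.672 in 9 pairs, all over 0.1), so the numbers from the titles were taken to pair libraries. Differently numbered libraries of replicates 2 and 3 also deviated together (0.154 to 0.398), and control replicate 3 more with Wnt1_KP6 replicate 2 (0.248) than with its own number in that group (0.11). The main tests did not use the pairing by number. In Wnt1 against control the block gave AXIN1 an SE of 0.10 (adjusted p = 0.198) and DVL1 a wider one of 0.31 (adjusted p = 0.85). For DVL2 it gave adjusted p = 0.129 there and 0.0657 in Wnt1_KP6 against control. The block changed no member's call. No replicates agreed within sampling noise. A library held 438 (BTRC) to 8928 (CTNNB1) expected counts of a member.

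Members and lists were chosen with earlier results of these data known. Named genes were the members, WNT1, the genes of each pathway list called in a comparison or else the one with the smallest p, and the 5 genes nearest in profile to CTNNB1 with a mean CPM of at least 5. DKK1, called with the block, and the genes whose FPKM is given as context were chosen after their values were seen. Some single marker genes are not reported here. Gene positions are from GENCODE 29.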

Additional observations from a re-analysis of the deposited data

How the results depend on the processing

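Between groups, DVL2 was higher than control in every fit run, and the calls of AXIN1, GSK3B and DVL1 were made only in fits that left libraries out. With the replicate block the genes called numbered 95 in Wnt1 against control and 149 in Wnt1_KP6 against control, and the log2 fold change of APC in Wnt1_KP6 against Wnt1 became 0.000166. The block changed no other sign or call among the members. DESeq2 called 284, 17 and 656 genes in Wnt1 against control, Wnt1_KP6 against Wnt1 and Wnt1_KP6 against control, with 1, 0 and 1 members. A fit of the 2 groups compared called 9 genes in Wnt1 against control and 0 in Wnt1_KP6 against control. Without replicate 1 of all 3 groups, 4115, 1124 and 5293 genes and 4, 0 and 3 members were called. In that fit APC became 0.16, 0.014 and 0.18 and GSK3A -0.074 and -0.075 in the comparisons with control, and CTNNB1 became 0.0079 in Wnt1_KP6 against control. The cause was not tested.

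Leaving out 1 library at a time gave 0 to 879 called genes in Wnt1 against control, 0 to 214 in Wnt1_KP6 against Wnt1 and 0 to 1198 in Wnt1_KP6 against control. The members called ran from 0 to 1, 0 to 0 and 0 to 2. The highest counts, 879 and 1198, came without control replicate 1, and 214 without Wnt1_KP6 replicate 1, which also gave 692 in Wnt1_KP6 against control. Without control replicate 2 or 3 no gene was called. Where a left-out library turned a sign, the log2 fold changes in Wnt1 against control were -0.14 to 0.090 for APC, -0.093 to 0.047 for CSNK1A1, -0.47 to 0.072 for DVL1 and -0.050 to 0.21 for GSK3A. In Wnt1_KP6 against Wnt1 they were -0.071 to 0.088 for APC, -0.0024 to 0.14 for BTRC, -0.066 to 0.14 for DVL1, -0.072 to 0.017 for DVL3 and -0.043 to 0.039 for GSK3A. In Wnt1_KP6 against control they were -0.14 to 0.090 for APC, -0.031 to 0.11 for CSNK1A1, -0.061 to 0.039 for CTNNB1, -0.43 to 0.11 for DVL1 and -0.059 to 0.20 for GSK3A. Ranges that kept their sign but moved by over 1.5 times included -0.19 to -0.048 (BTRC) and -0.16 to -0.026 (CTNNB1) in Wnt1 against control and 0.056 to 0.22 (GSK3B) in Wnt1_KP6 against Wnt1.

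Shares from expected counts in place of FPKM turned the sign of 4 of 18 differences, DVL1 in Wnt1_KP6 against Wnt1 (0.383 points), GSK3A in Wnt1 against control (-1.60 points), and JUP in Wnt1 against control (0.843 points) and Wnt1_KP6 against Wnt1 (-1.0 points). With 1 library left out, the JUP share differences ran from -2.52 to 0.718, -0.014 to 1.07 and -2.06 to 1.18 points in the 3 comparisons. The GSK3A share ran from -2.29 to 3.18 points in Wnt1 against control. In Wnt1_KP6 against Wnt1 the BTRC share ran from -0.794 to 2.04 and the DVL1 share from -1.57 to 0.41 points, and the DVL3 share from -0.271 to 2.73 points in Wnt1_KP6 against control. Ranking by mean CPM over mean implied length kept all 10 levels in their place. That length is derived from the same counts and FPKM, so the ranking could hardly differ and is no separate check. An order by an independent length was not tested. Size factors by another method and no filter on low counts turned no sign and changed no call among the members.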
